A study of Rattus norvegicus with 16 samples.

Results

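The genes described here were 84 of the 32552 genes counted at the implant–abdominal wall interface of rats, selected on their measured levels, which were much lower on day 14 than on day 3 under both kinds of implant. The level was CPM, the raw count of a gene per 1000000 counts of its library. A member had a day 3 mean of at least 5 CPM under each implant, a day 3 mean at least 4 times the day 14 mean of the same implant, and all 8 day 3 values above all 8 day 14 values. Several genes and a stretch of chromosome 20 were left out by the rule, which removed 3 genes that met the other conditions. The rule thus used every comparison between the days, and the falls below are a description of the members, with no test.

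All 16 libraries came from the abdominal wall of Sprague Dawley rats labelled as female and 12 weeks old (the study's methods name both sexes for its rat work), with 4 libraries in each of 4 groups, namely adhesive implant on day 3, non-adhesive implant on day 3, adhesive implant on day 14 and non-adhesive implant on day 14. The adhesive implant was a polyurethane mock device with a tissue-bonding hydrogel layer, and the non-adhesive implant was the same object after it had swollen in PBS and lost its bonding, so that it was held by sutures. No wall without an implant and no wall with sutures alone was analysed here, so all groups share surgery and an implant, and the loss of bonding comes together with sutures. The labels do not tie libraries to animals, so p-values below measure the spread between these samples, and days follow the labels of the samples, although the series text also names a day 17 and the extraction protocol a day 10.

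An implant on a serosal surface injures the tissue below it. In the days that follow, leukocytes enter, mesothelial and connective tissue cells divide, a provisional matrix is laid down and damaged muscle fibres begin repair, and much of this early activity fades as a scar or capsule matures. Genes that act in cell division, in early transcriptional responses and at wound surfaces are therefore familiar markers of the early phase. In bulk tissue such as this, fewer cells of a type and less RNA per cell cannot be told apart.

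The files pair no symbols with their Ensembl identifiers, and the symbols held here cover 2007 genes and 11 members. These were Nuf2, Kifc1 and Ung (cell division and DNA repair), Tuba4a and Sntb1 (cytoskeleton), Runx1 and Litaf (both on the list of early response and stress regulators), Chrd and Prg4 (secreted), and Parm1 and Cd24 (cell surface). The other 73 members are given by identifier only. Library totals were 18616084 to 24858976 counts on day 3 and 13852126 to 16801635 on day 14, so every day 14 library was shallower than every day 3 library, and day and depth cannot be told apart. Of the markers, 6 of 15 skeletal muscle fibre genes with a symbol were called higher on day 14 under each implant. Over all 14601 genes, 4.39% were called higher at adhesive and 5.32% at non-adhesive implants. The summed level of the 15 ranged from 6747 to 14516 CPM on day 3 and from 12204 to 21451 CPM on day 14. The share of counts in the 10 most abundant genes ranged from 7.72 to 17.0% on day 3 and from 18.1 to 28.7% on day 14. Coordinates are those of the count files, whose build could not be settled. The study names mRatBN7.2, the labels name GRCm38, and the positions fit neither.

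Of 10403 genes with a day 3 mean of at least 5 CPM under both implants, 315 fell at least 4 times at adhesive implants, 206 at non-adhesive implants and 147 at both. A further 60 of these 147 failed because their days overlapped. The 84 members were 0.816% of the 10295 genes that could pass after the exclusions, and the same rule with the days exchanged found 22 genes. Members' folds were 4.10 to 44.0 at adhesive implants, with a median of 5.63, and 4.01 to 190.2 at non-adhesive implants, with a median of 5.74. Both folds were at least 10 in 10 members, the smaller fold was 5 to 10 in 35, and it was under 5 in 39. Just inside the threshold were ENSRNOG00000017120, Tuba4a and ENSRNOG00000019582, with smaller folds of 4.01, 4.02 and 4.07. Just outside it were ENSRNOG00000012318, ENSRNOG00000012683 and ENSRNOG00000012886, with 3.99, 3.98 and 3.93.

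Part of each fold depends on how libraries are scaled. With CPM from library totals, the median gene over the day 3 minimum also fell, by 1.53 times at adhesive and 1.37 times at non-adhesive implants (0.61 and 0.45 on the log2 scale). TMM, the scaling of edgeR that centres the bulk of genes, brought those medians to 1.03 and 1.01 and the members' medians to 3.89 and 4.38. On that scale every member still had a lower day 14 mean, with a lowest fold of 2.70, and 76 of 84 had all day 3 values above all day 14 values. At least 4 times was then reached by 34 members at adhesive implants, 51 at non-adhesive implants and 27 at both, and the whole rule by 25 genes, all of them members.

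**Figure D1:**
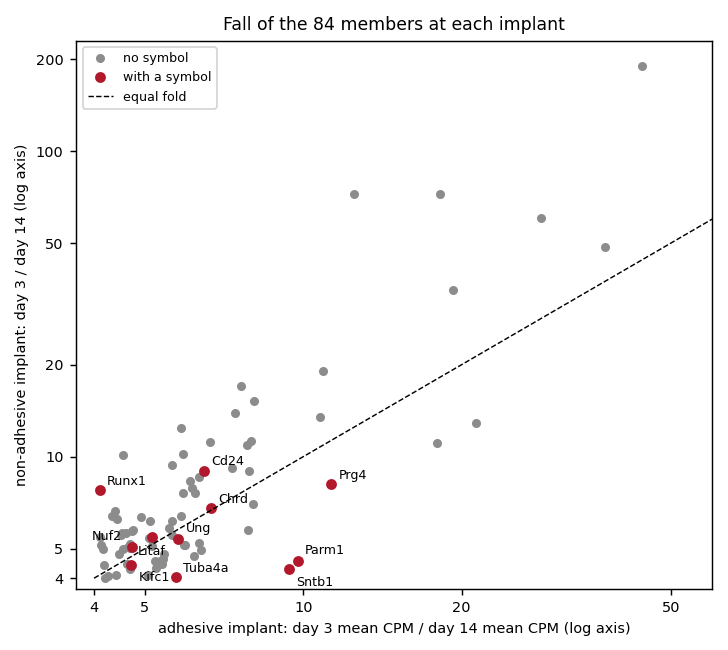
Each point is 1 of the 84 members, placed by its fold (day 3 mean CPM over day 14 mean CPM, n = 4 libraries a group, both axes logarithmic) at the adhesive implant and at the non-adhesive implant. Most points lie between 4 and 10 on both axes, 54 of 84 lie above the dashed line of equal folds, and Prg4 is the only member with a symbol that passes 10 at the adhesive implant.

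Together the members held 1.51% ± 0.45 of counts at adhesive and 1.42% ± 0.30 at non-adhesive implants on day 3 (SD, n = 4), and 0.227% ± 0.055 and 0.207% ± 0.037 on day 14. Their abundance was uneven, and 7 of the 84 held 51.9% of the members' day 3 level. The highest day 3 mean levels over both implants were 1728 CPM for ENSRNOG00000043451, 1355 CPM for ENSRNOG00000011901, 1201 CPM for ENSRNOG00000018566 and 1199 CPM for Tuba4a. Per kilobase of exon, a scale on which genes can be set side by side, ENSRNOG00000043451 at 1138, ENSRNOG00000011901 at 894 and Tuba4a at 828 CPM per kb came highest. The members' exon length had a median of 1933 bases, against 2456 over the 10403 genes. Levels of members varied between libraries of a group more than those of other genes, with a median coefficient of variation of 36.3 to 45.1% across the 4 groups, against 17.1 to 24.9%.

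Cell division was represented by Nuf2 and Kifc1, and DNA repair by Ung. Nuf2 (ENSRNOG00000002711, chr13:87818391-87847263, - strand) is a part of the NDC80 complex that binds kinetochores to microtubules. At adhesive implants, Nuf2 read 4.95, 6.45, 10.1 and 10.0 CPM on day 3 and 0.505, 3.33, 1.099 and 1.75 CPM on day 14. At non-adhesive implants it read 16.9, 6.22, 14.5 and 15.98 CPM on day 3 and 4.23, 3.33, 2.36 and 0.707 CPM on day 14. The days did not overlap within either implant, while the implants overlapped on both days, and the day 3 mean was 13.4 ± 4.89 CPM at non-adhesive against 7.89 ± 2.60 CPM at adhesive implants (SD, n = 4). The folds of Nuf2 were 4.72 at adhesive and 5.04 at non-adhesive implants.

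Kifc1 (ENSRNOG00000000479, chr20:5509059-5526175, + strand) is a minus-end kinesin that gathers microtubules at spindle poles. At adhesive implants its levels were 7.56, 10.7, 11.8 and 13.5 CPM on day 3 and 1.08, 4.998, 1.24 and 1.94 CPM on day 14. At non-adhesive implants they were 29.7, 7.78, 18.3 and 20.7 CPM on day 3 and 6.96, 5.85, 3.45 and 1.03 CPM on day 14. The folds were 4.71 and 4.42, and the lowest day 3 value of Kifc1, in adhesive replicate 1, lay close to its highest day 14 value, in non-adhesive replicate 1.

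Ung (ENSRNOG00000000692, chr12:48246569-48254822, - strand), the uracil-DNA glycosylase that removes uracil from DNA, fell from 21.7 ± 5.23 to 3.76 ± 1.72 CPM at adhesive and from 26.5 ± 14.1 to 4.94 ± 1.85 CPM at non-adhesive implants (SD, n = 4). Its day 3 values were 14.2, 26.1, 23.8 and 22.8 CPM at adhesive and 29.0, 15.8, 45.5 and 15.8 CPM at non-adhesive implants. Its day 14 values were 1.80, 5.83, 4.33 and 3.06 CPM and 6.49, 5.44, 5.58 and 2.25 CPM in the same order. Every day 3 value of Ung was more than 2 times every day 14 value, and the folds of 5.78 and 5.37 lay close together.

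The cell cycle and DNA replication list held 27 genes with a symbol, of which Nuf2, Kifc1 and Ung were members. Of the other 24, 5 were called lower on day 14 and 1 higher at adhesive implants, and 8 lower and 0 higher at non-adhesive implants, where over all 14601 genes 3.73% and 3.75% were called lower and 4.39% and 5.32% higher. A gene was called where edgeR's quasi-likelihood test gave a Benjamini-Hochberg adjusted p no higher than 0.05 and the log2 fold change was 1 or more, up or down. Their median log2 change, with TMM scaling, was -0.87 and -1.14. The kinetochore protein Cenpf changed by -1.77 and -1.76 on the log2 scale (edgeR adjusted p = 0.0366 and 0.0304), and the helicase subunit Mcm6 by -1.26 and -1.20 (edgeR adjusted p = 0.0375 and 0.0380). Aurka, a mitotic kinase, changed by -0.89 and -1.25, so that only the non-adhesive value passed the limit on the fold change. Cit, the citron kinase of cytokinesis that is also used outside dividing cells, was the gene called higher at adhesive implants, by 1.13 on the log2 scale. Cenpf, Mcm6, Aurka and Cit were picked for naming after their values were seen.

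Promoters from RefSeq (GRCr8, 250 bases before to 50 after the start) were held for 10 of the 11 members with a symbol, all but Sntb1. Those of Ung and Prg4 are shown as examples, with CCAAT boxes in a DNA repair gene and a TATA motif in the gene of lubricin. The window of Ung is chr12:48153996-48154295, - strand, and that of Prg4 is chr13:65054176-65054475, - strand. Capitals mark the CCAAT box, the E-box CACGTG and the motif TATAAA, each read on either strand, and no motifs overlap here.
Ung: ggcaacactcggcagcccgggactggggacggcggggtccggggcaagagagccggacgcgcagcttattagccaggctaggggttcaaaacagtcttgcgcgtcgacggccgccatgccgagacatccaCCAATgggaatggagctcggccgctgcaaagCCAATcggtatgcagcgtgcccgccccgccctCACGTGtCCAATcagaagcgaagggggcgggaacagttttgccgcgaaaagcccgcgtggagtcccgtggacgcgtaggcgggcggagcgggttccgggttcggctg
Prg4: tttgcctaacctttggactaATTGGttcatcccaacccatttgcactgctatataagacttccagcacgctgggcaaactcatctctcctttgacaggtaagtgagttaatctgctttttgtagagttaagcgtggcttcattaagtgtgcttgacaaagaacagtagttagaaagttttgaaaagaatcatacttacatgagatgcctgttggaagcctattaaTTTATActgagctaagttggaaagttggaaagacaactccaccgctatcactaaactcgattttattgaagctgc
In Ung, CCAAT starts at -120, -89 and -50 from the start and the E-box CACGTG at -57. In Prg4, CCAAT lies at -230 and TATAAA at -25, both read on the opposite strand. Kifc1 has CCAAT at -99 and -70. CCAAT was thus in 3 of 10 members' windows and in 37.5% of 33469 promoters of the same length, CACGTG in 1 and 6.42%, and TATAAA in 1 and 14.2%. None of the 10 held TGANTCA (AP-1, 7.33% of all promoters), TGACGTCA (CRE, 1.83%), TTTCCCGC (E2F, 0.974%) or GGGANTTCC (NF-kB, 1.64%), each searched on both strands.

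Of the cytoskeletal members, Tuba4a (ENSRNOG00000003597, chr9:82415605-82419288, - strand) encodes an alpha-tubulin. It was the most abundant member with a symbol. At adhesive implants it read 1823, 1157, 1694 and 1104 CPM on day 3 and 132, 221, 395 and 263 CPM on day 14. At non-adhesive implants it read 561, 1159, 897 and 1195 CPM on day 3 and 166, 268, 271 and 242 CPM on day 14. Its folds of 5.72 and 4.02 placed it just inside the rule at the non-adhesive implant, where replicate 1 was low on day 3. Sntb1 (ENSRNOG00000004821, chr7:95397113-95669809, - strand), a syntrophin that links the dystrophin complex to signalling proteins, was 10.1 ± 3.56 and 7.27 ± 0.436 CPM on day 3 and 1.08 ± 0.402 and 1.70 ± 0.912 CPM on day 14 at adhesive and non-adhesive implants (SD, n = 4). Its fold was 9.37 at adhesive and 4.27 at non-adhesive implants, and its 4 non-adhesive values on day 3 lay within 6.84 to 7.68 CPM.

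Runx1 (ENSRNOG00000001704, chr11:32769165-33003021, - strand) is a transcription factor of blood cell formation that is also switched on in injured tissue. At adhesive implants it read 19.5, 83.2, 35.6 and 49.7 CPM on day 3 and 5.34, 17.0, 17.7 and 5.88 CPM on day 14. At non-adhesive implants it read 51.7, 42.0, 60.9 and 38.6 CPM on day 3 and 7.80, 7.48, 7.57 and 2.06 CPM on day 14. On day 3 the non-adhesive values lay within the range of the adhesive values, and on day 14 adhesive replicates 2 and 3 stood above all non-adhesive libraries while replicates 1 and 4 did not. The fold of Runx1 was 4.10 at adhesive implants, the lowest adhesive fold of the 84 members, and 7.75 at non-adhesive implants.

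Litaf (ENSRNOG00000002520, chr10:4719713-4763510, + strand) encodes an endosomal membrane protein, first described as a factor induced by lipopolysaccharide. Its day 3 values were 189, 459, 343 and 383 CPM at adhesive and 397, 153, 454 and 271 CPM at non-adhesive implants. Its day 14 values were 34.7, 94.8, 73.6 and 63.3 CPM at adhesive and 68.3, 77.3, 62.1 and 25.2 CPM at non-adhesive implants. The implants overlapped on both days, and the lowest library of each group was adhesive replicate 1 or non-adhesive replicate 2 on day 3 and adhesive replicate 1 or non-adhesive replicate 4 on day 14. The folds were 5.16 and 5.47.

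Of the early response and stress regulators, 22 had a symbol and Runx1 and Litaf were members. Of the other 20, 3 were called lower on day 14 at each implant and 0 higher, with median log2 changes of -0.82 and -0.65. Over all 14601 genes, 3.73% and 3.75% were called lower. Myc, a growth regulator, was called at both, with 40.4 ± 13.0 and 44.2 ± 16.9 CPM on day 3 and 8.95 ± 4.01 and 13.1 ± 4.86 CPM on day 14 (SD, n = 4, edgeR adjusted p = 0.00439 and 0.00804). Rcan1, an inhibitor of calcineurin, was called at non-adhesive implants, with a log2 change of -2.23, and Atf3, a stress-induced transcription factor, at adhesive implants, with -1.28. The other calls were Socs1 (-2.50), a brake on cytokine signalling, at adhesive implants and Tnfrsf12a (-1.03), a receptor of injured tissue, at non-adhesive implants. These 5 genes were picked for naming after their values were seen. Whether any of these changes differed between implants is given only by the difference tested below, in which no gene of this list was called.

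Among secreted members, Prg4 (ENSRNOG00000002385, chr13:67672878-67688477, - strand) encodes lubricin, the mucin-like protein that coats joint and serosal surfaces. At adhesive implants it read 241, 454, 210.1 and 342 CPM on day 3 and 24.8, 34.1, 21.6 and 29.9 CPM on day 14. At non-adhesive implants it read 472, 161, 410.1 and 177 CPM on day 3 and 70.7, 39.2, 20.5 and 19.5 CPM on day 14. The lowest day 3 value was above 2 times the highest day 14 value, which was non-adhesive replicate 1. The fold of 11.3 at adhesive implants was the largest of a member with a symbol, and 8.13 was its fold at non-adhesive implants. Of the 5 mesothelial markers listed, Prg4 was the 1 with a symbol, so the mesothelium was not otherwise measured by name.

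Chrd (ENSRNOG00000001750, chr11:83858503-83867203, - strand) encodes chordin, which binds bone morphogenetic proteins and keeps them from their receptors. At adhesive implants its levels were 28.6, 92.0, 48.5 and 60.5 CPM on day 3 and 4.11, 12.4, 9.41 and 8.57 CPM on day 14. At non-adhesive implants they were 81.6, 44.8, 81.5 and 36.0 CPM on day 3 and 10.8, 11.1, 10.3 and 3.66 CPM on day 14. The implants overlapped on both days, and the folds of 6.67 and 6.79 were the closest pair among the members with a symbol.

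Of the surface members, Parm1 (ENSRNOG00000002579, chr14:17969219-18076907, - strand), a mucin-like membrane protein, read 92.3, 97.7, 36.7 and 31.9 CPM at adhesive and 40.5, 46.2, 51.1 and 23.0 CPM at non-adhesive implants on day 3. On day 14 it read 4.98, 8.26, 5.50 and 7.75 CPM and 13.6, 10.1, 7.999 and 3.66 CPM. Adhesive replicates 1 and 2 stood apart on day 3, the other 6 libraries of that day overlapped, and the folds were 9.76 and 4.55. Cd24 (ENSRNOG00000000321, chr20:48335540-48340846, + strand), a small glycoprotein anchored in the membrane of leukocytes and epithelia, read 78.7, 160.0, 119.8 and 117 CPM at adhesive and 167, 184, 339.8 and 141 CPM at non-adhesive implants on day 3. On day 14 it read 19.6, 18.9, 3.16 and 31.6 CPM and 17.7, 25.3, 10.6 and 38.9 CPM, with the lowest value in replicate 3 of each implant. Its folds were 6.49 and 8.99.

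**Figure D2:**
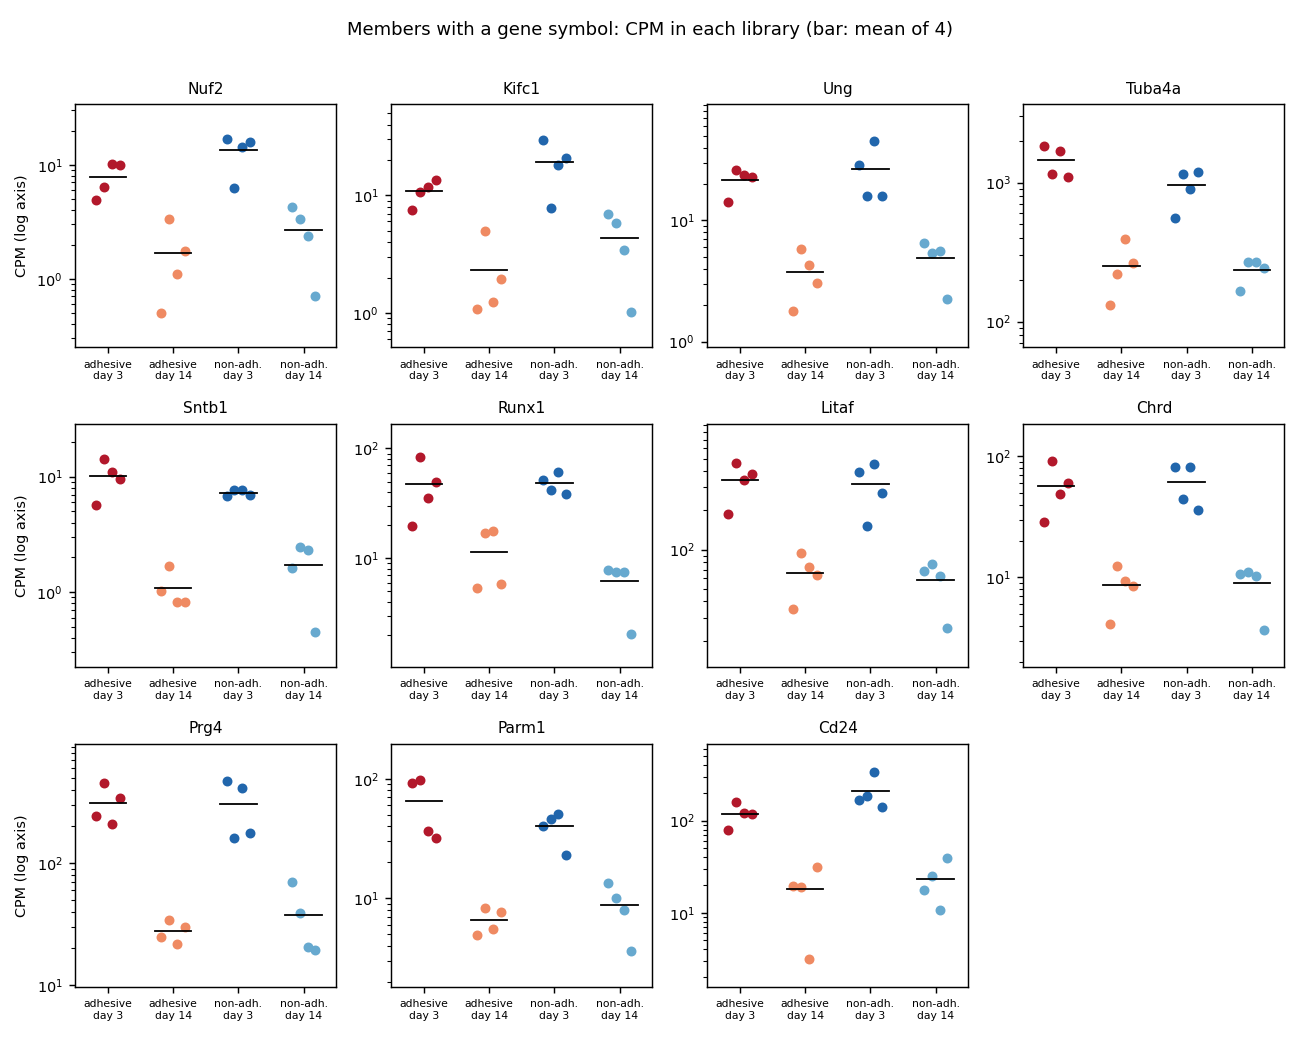
CPM (logarithmic axis) of the 11 members with a symbol in each of the 16 libraries, with replicates 1 to 4 from left to right in each group and a bar at the group mean. All day 3 points lie above all day 14 points in each panel, as the rule requires, and the adhesive and non-adhesive points of the same day overlap.

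The 10 members that fell 10 times or more under both implants had no symbol, as was so for 73 of all 84 members. ENSRNOG00000012222 (chr19:568287-578520, + strand) had the largest folds, 44.0 at adhesive and 190.2 at non-adhesive implants. It read 12.3, 46.0, 15.5 and 19.0 CPM at adhesive and 28.2, 2.61, 10.2 and 9.08 CPM at non-adhesive implants on day 3. On day 14 it read 0.144, 0.833, 0.756 and 0.375 CPM at adhesive implants, and its 4 non-adhesive libraries held 4 counts in all, with 2 libraries at 0. Its fold at non-adhesive implants thus rests on very few counts. ENSRNOG00000024630 (chr1:80852528-80864846, - strand) was near 7 CPM on day 3, at 6.92 ± 3.43 and 7.42 ± 1.71 CPM, and had 11 and 10 counts in all on day 14, for folds of 37.5 and 48.5.

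ENSRNOG00000025764 (chr19:11302125-11302938, - strand), with an exon length of 348 bases, held 283 and 223 counts in all on day 14 at adhesive and non-adhesive implants. It read 121, 234, 98.5 and 94.9 CPM at adhesive and 229.7, 166, 381 and 98.7 CPM at non-adhesive implants on day 3. On day 14 it read 0.938, 12.2, 4.05 and 2.19 CPM and 2.38, 8.02, 2.42 and 1.61 CPM, with replicate 2 the highest of each implant. Its folds were 28.3 and 60.6. ENSRNOG00000026344 (chr6:23359009-23404368, - strand) had folds of 19.2 and 35.1, from 69.4 ± 23.5 and 46.9 ± 17.6 CPM on day 3, and ENSRNOG00000055078 (chr5:134508730-134526089, - strand) had 21.3 and 12.9, from 190.2 ± 103 and 263 ± 193 CPM.

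ENSRNOG00000043451 (chr14:6673686-6679901, - strand), the most abundant member, read 393, 2508, 1985 and 2423 CPM at adhesive and 2508, 822, 1577 and 1608 CPM at non-adhesive implants on day 3. On day 14 it read 42.0, 174, 98.8 and 91.8 CPM and 350.1, 97.6, 95.6 and 45.0 CPM. Its lowest day 3 value, in adhesive replicate 1, was close to its highest day 14 value, in non-adhesive replicate 1, and its folds were 17.98 and 11.1. ENSRNOG00000018262 (chr1:175586097-175630467, + strand) fell 10.7 and 13.5 times, ENSRNOG00000042497 (chr9:17782395-17782664, + strand) 18.2 and 72.4 times, and ENSRNOG00000054495 (chrX:111122552-111137769, + strand) 12.5 and 72.6 times. The day 14 values of ENSRNOG00000042497 at non-adhesive implants came from 14 counts in all, and those of ENSRNOG00000054495 from 13. ENSRNOG00000018566 (chr17:1872848-1879279, - strand), the other highly abundant member, fell from 1147 ± 543 to 179.6 ± 82.0 CPM at adhesive and from 1256 ± 337 to 254 ± 123 CPM at non-adhesive implants (SD, n = 4).

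**Figure D3:**
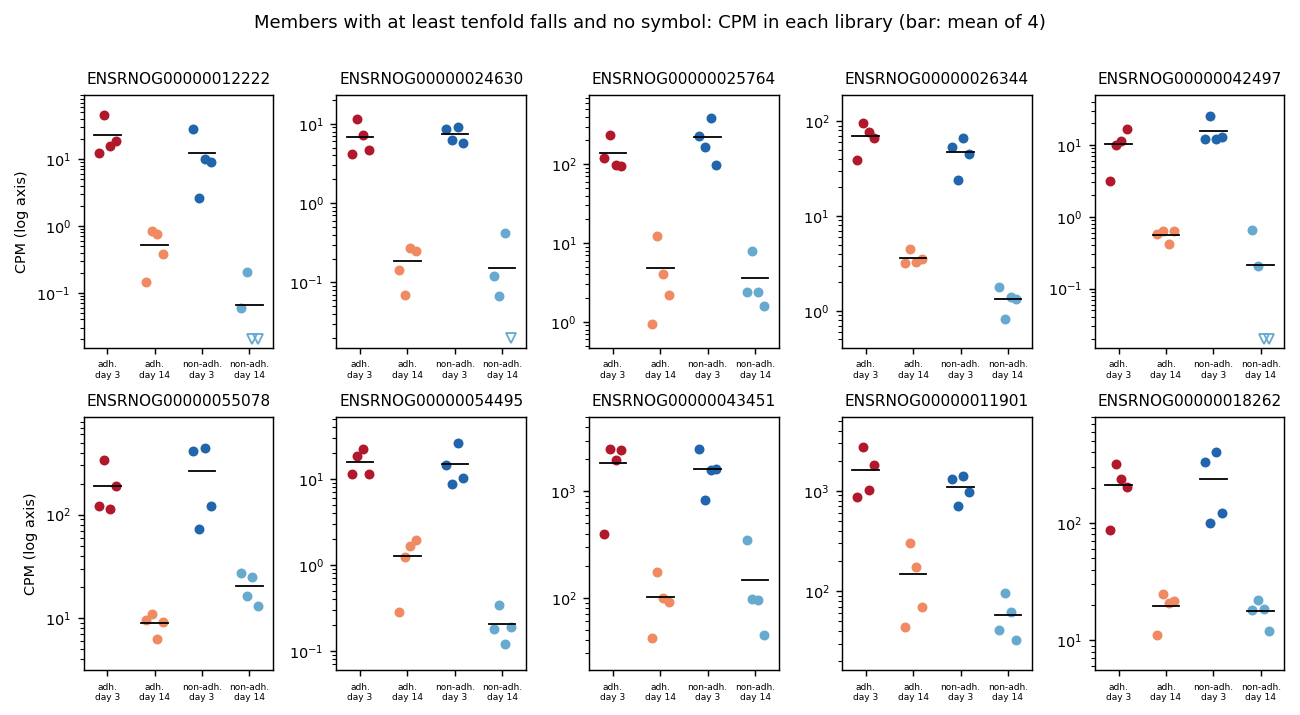
CPM (logarithmic axis) of the 10 members whose smaller fold was largest among those without a symbol, in order of that fold, with replicates 1 to 4 from left to right in each group and a bar at the mean. Open triangles at the bottom mark libraries at 0, all of them non-adhesive day 14, and in ENSRNOG00000026344 the adhesive day 14 points lie above the non-adhesive ones while in ENSRNOG00000055078 they lie below.

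The members lay on 21 chromosomes, with 14 on chromosome 1 (1.07% of its 1309 genes over the day 3 minimum) and 10 on chromosome 3 (1.28% of 783). Another member lay within 100 kb of 13 members, in 8 pairs. The closest group was on chromosome 19, where ENSRNOG00000011865, ENSRNOG00000011901 and ENSRNOG00000012222 lie on the same strand between 551708 and 578520. ENSRNOG00000011901 (chr19:561727-564930, + strand) read 878, 2743, 1009.9 and 1814 CPM at adhesive and 1313, 704, 1394 and 982 CPM at non-adhesive implants on day 3. On day 14 it read 44.4, 303, 176 and 69.3 CPM and 41.0, 95.9, 61.3 and 32.8 CPM, so its folds were 10.9 and 19.0. Across the 8 libraries of a day, the correlation of ENSRNOG00000011901 with ENSRNOG00000012222, 3356 bases away, was 0.82 on day 3 and 0.91 on day 14 on the log2 scale, and with ENSRNOG00000011865 it was -0.06 and -0.24. These values describe libraries that share depth and tissue makeup, and the 8 libraries of a day pool both implants. On day 14 ENSRNOG00000012222 was near the floor, so its correlation on that day rests on very few counts. On chromosome 3, ENSRNOG00000009289 and ENSRNOG00000037124 overlap on opposite strands, and whether the counting used strand is not given in the sources used here, so reads could be shared between them.

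In each group, 1 library held the lowest value for most members, although not for all, as Tuba4a was highest in adhesive replicate 1 on day 3. Of the adhesive libraries of day 3, replicate 1 had the lowest summed level, at 9106 CPM against 14566 to 19629 CPM in the other 3, and it held the lowest value for 65 of 84 members. Non-adhesive replicate 2 was the lowest of its group on day 3, at 10658 CPM, for 56 members. On day 14 the lowest were adhesive replicate 1, at 1529 CPM, for 49 members, and non-adhesive replicate 4, at 1526 CPM against 2197 to 2299 CPM in the other 3, for 63 members.

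Markers of other cells moved with these libraries. Summed skeletal muscle fibre markers were highest of their group in adhesive replicate 1 on day 3 (14516 CPM), non-adhesive replicate 2 on day 3 (12993 CPM) and non-adhesive replicate 4 on day 14 (18909 CPM), and were 21026 CPM in adhesive replicate 1 on day 14, below the 21451 CPM of replicate 4. The sum of 12 pan-leukocyte markers, all with a symbol, was 480 CPM in adhesive replicate 1 and 216 CPM in non-adhesive replicate 2 on day 3, and 144 CPM in adhesive replicate 1 and 79.1 CPM in non-adhesive replicate 4 on day 14, the last 3 being the lowest of their groups. The sum of 13 fibroblast and matrix markers was the lowest of its group in all 4 of these libraries, at 3784 CPM in adhesive replicate 1 and 6350 CPM in non-adhesive replicate 2 on day 3 and 1695 CPM in adhesive replicate 1 and 1915 CPM in non-adhesive replicate 4 on day 14. The summed cell cycle list was the lowest of its group in 3 of the 4, the exception being adhesive replicate 1 on day 14 (172 CPM, against 152 CPM in replicate 3), but that list holds 3 members. The part of tissue makeup in the members' levels was not tested. Between the days the 12 pan-leukocyte markers had median log2 changes of -0.80 at adhesive and -0.16 at non-adhesive implants, with 0 of 12 called at either.

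**Figure D4:**
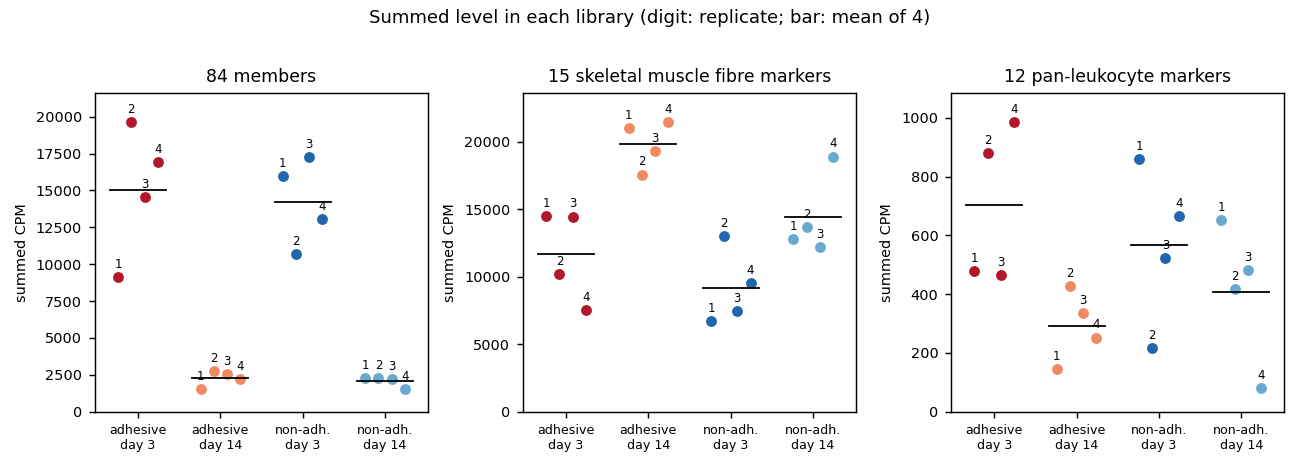
Summed CPM in each library of the 84 members, of 15 skeletal muscle fibre markers and of 12 pan-leukocyte markers, with the replicate number at each point and a bar at the group mean. The members' sums are 9106 to 19629 CPM on day 3 and 1526 to 2782 CPM on day 14, and the lowest libraries of the left panel stand high in the muscle panel.

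The comparison of implants on the same day was not used by the rule. On day 3, edgeR's quasi-likelihood test called 0 of the 84 members and 0.0% of 14223 genes, with 10 members at an unadjusted p under 0.05 (11.9%, against 7.19% of all genes), and DESeq2 called 0 members and 0.485% of genes. The members' median log2 fold change, adhesive against non-adhesive, was -0.06, against -0.01 over all genes, with 35 members above 0 and 49 below (51.5% of all genes were below). The groups did not overlap in 1 member, lower at adhesive implants (background 3.12% lower and 0.619% higher), and in 0 members in the other direction. With TMM scaling the counts were the same (background 2.67% lower and 1.4% higher). The member without overlap was ENSRNOG00000029862 (chr8:22780725-22785671, - strand), with 4.42, 5.53, 6.16 and 8.31 CPM at adhesive and 14.8, 9.09, 13.7 and 13.9 CPM at non-adhesive implants. The log2 fold change of this gene was -1.01 (SE 0.19, edgeR adjusted p = 0.591). DESeq2 gave it an adjusted p of 0.000263 and a fold change just short of the limit.

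The other members furthest from 0 on day 3 in the negative direction were ENSRNOG00000009785, at -1.05 (SE 0.31), and ENSRNOG00000018815, at -0.95 (SE 0.28), with an edgeR adjusted p of 0.596 each. In the positive direction they were ENSRNOG00000023016, at 1.04 (SE 0.29), ENSRNOG00000012222, at 1.00 (SE 0.60), and Parm1, at 0.77 (SE 0.45), with edgeR adjusted p-values of 0.596 to 0.768. Of the members with a symbol, Nuf2, Kifc1 and Cd24 had the most negative log2 fold changes on day 3, at -0.68 (SE 0.30), -0.72 (SE 0.30) and -0.77 (SE 0.30), and their values overlapped between implants. None passed the test, with edgeR adjusted p-values of 0.656 to 0.684. The sign of the members' median was not stable, as it was 0.08 without adhesive replicate 1 and 0.14 without non-adhesive replicate 3.

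On day 14, 80 members passed edgeR's filter on low counts, and ENSRNOG00000012222, ENSRNOG00000024630, ENSRNOG00000042497 and ENSRNOG00000054495 did not. EdgeR called 0 of the 80, against 0.266% of 13557 genes, and 17 were at an unadjusted p under 0.05 (21.2%, against 15.9%). Of the 17, 16 were higher at adhesive implants, but the same split over all genes was not counted, so no conclusion is drawn from it. The median log2 fold change of the 80 was 0.16, against -0.04 over all genes, and 47 were above 0, against 45.7% of all genes. Adhesive values lay wholly above non-adhesive ones in 7 of the 84 members (8.33%, background 3.81%) and wholly below in 1 (1.19%, background 3.78%). With TMM scaling the counts were 12 (14.3%, background 4.54%) and 1 (1.19%, background 4.11%). These backgrounds cover only the 13557 genes that passed the filter, while the 84 include the members that did not, so the sets are not alike.

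ENSRNOG00000026344 read 3.18, 4.44, 3.30 and 3.501 CPM at adhesive and 1.79, 0.816, 1.39 and 1.35 CPM at non-adhesive implants on day 14. Every adhesive value was above every non-adhesive value, and the log2 fold change was 1.57 (SE 0.30, edgeR adjusted p = 0.0847). ENSRNOG00000023016 (chrX:147493880-147496649, + strand) read 3.83, 3.75, 2.34 and 5.94 CPM and 2.08, 1.70, 0.424 and 0.642 CPM, again without overlap, for 1.94 (SE 0.48, edgeR adjusted p = 0.120). ENSRNOG00000055078 went the other way, with 9.46, 10.8, 6.25 and 9.13 CPM at adhesive and 27.3, 16.2, 24.8 and 13.0 CPM at non-adhesive implants and a log2 fold change of -0.97 (SE 0.22, edgeR adjusted p = 0.106). ENSRNOG00000011901 had 1.5 (SE 0.52) and Runx1 1.1 (SE 0.43), with overlapping groups and edgeR adjusted p-values of 0.215 and 0.255. The most negative after ENSRNOG00000055078 were ENSRNOG00000018815, at -0.70 (SE 0.49), and Kifc1, at -0.68 (SE 0.53), with edgeR adjusted p-values of 0.546 and 0.598.

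The day 14 calls depended on the tool and on 1 library. DESeq2 called 3 members, all higher at adhesive implants (background 1.15% higher and 3.5% in all), which were ENSRNOG00000026344, ENSRNOG00000023016 and ENSRNOG00000019527. Non-adhesive replicate 4 had 18909 CPM of muscle markers, against 12204 to 13701 CPM in the other 3 libraries of its group. It had 1915 CPM of 13 fibroblast and matrix markers, against 20408 to 21599 CPM. Without it, edgeR called 10 of the 81 members tested, 9 higher and 1 lower. Of all 13832 genes, 2.10% were called higher, 860 genes lower and 8.32% either way. The 9 include ENSRNOG00000054495, which had failed the filter on low counts in the fit of all day 14 libraries. With 13 counts in all at non-adhesive implants, it passed here through its adhesive libraries, where it was higher. Its call among the 9 and the 10 thus supports nothing here. A single edgeR fit of all 16 libraries called 3 members, all higher (background 0.438% higher and 1.48% in all), which were ENSRNOG00000026344, ENSRNOG00000023016 and ENSRNOG00000054495. The last of these had failed the filter on low counts in the fit of day 14 alone, with 13 counts in all at non-adhesive implants, and entered the single fit through its day 3 libraries, whose high level the rule had used, so its call supports nothing here. ENSRNOG00000019527 was named after its values were seen.

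**Figure D5:**
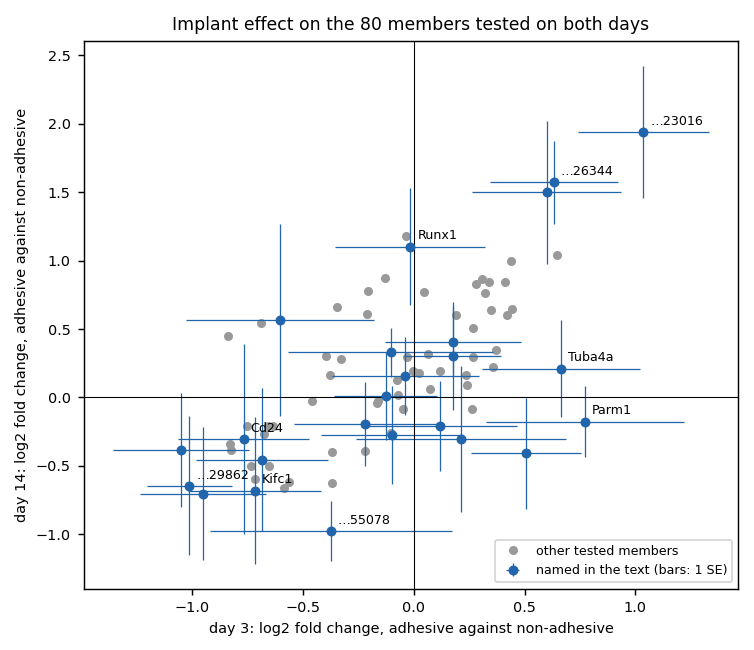
Log2 fold change between adhesive and non-adhesive implants on day 3 (horizontal) and on day 14 (vertical) for the 80 members tested on both days, from edgeR with TMM scaling. Bars of 1 standard error are drawn for members named by rule, which the legend calls named in the text, and some identifiers are cut to their last 5 digits. Members named in the text for other reasons, such as ENSRNOG00000019527, have no bars. None of the points passed edgeR's test on either day, and ENSRNOG00000023016 and ENSRNOG00000026344 lie highest on day 14.

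Whether the fall differed between implants was tested as the difference of the implant effect between the days, over all 16 libraries. EdgeR called 0 of the 84 members, against 0.00685% of 14601 genes, and 4 were at an unadjusted p under 0.05 (4.76%, against 4.74%). ENSRNOG00000012222, ENSRNOG00000024630, ENSRNOG00000042497 and ENSRNOG00000054495 had failed the filter on low counts on day 14. They entered this fit through their day 3 libraries, whose high level the rule had used, so their values support nothing here. All of them had differences above 0, and ENSRNOG00000042497 and ENSRNOG00000054495 were among those at an unadjusted p under 0.05. DESeq2 called 0 members and 0.171% of genes. The difference was above 0, meaning a larger fall at non-adhesive implants, in 64 members and below 0 in 20. Over all genes 49.0% were above 0, and the members' median was 0.25 on the log2 scale. The rule set part of this. It asked the same CPM fold of both implants, while the median gene fell 1.53 times at adhesive and 1.37 times at non-adhesive implants. With TMM scaling, passing thus took a larger fall at non-adhesive implants, so no conclusion is drawn from the 64. The count above 0 was 51 to 74 when each library was left out in turn, lowest without adhesive replicate 2 of day 14. In CPM, the fold was larger at non-adhesive implants in 54 of 84 members, against 35.1% of genes over the day 3 minimum. That count comes from the folds that the rule used, so no conclusion is drawn from it either.

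The largest differences were 2.61 (SE 0.71) for ENSRNOG00000054495 and 2.24 (SE 0.94) for ENSRNOG00000042497, with edgeR adjusted p-values of 0.732 and 1.00. Both rest on 13 or 14 counts at non-adhesive implants on day 14. Of members with a symbol, Runx1 had the most positive difference, 1.12 (SE 0.56), and Parm1 and Sntb1 the most negative, -0.96 (SE 0.56) and -0.91 (SE 0.47). None of the 3 passed the test, with an edgeR adjusted p of 1.00 each, so that the folds of 9.76 against 4.55 for Parm1 were not told apart.

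None of the 11 members with a symbol stood in the lists of other pathways of the wound response, and the other 73 could not be matched to any list. Over all 14601 genes, 3.73% and 3.75% were called lower on day 14 at adhesive and non-adhesive implants, and 4.39% and 5.32% higher. At adhesive implants 5 of 12 interferon-stimulated genes were called lower on day 14, against 0 of 12 at non-adhesive implants. The difference between implants was called in 0 of the 12, by a test that called only 0.00685% of all genes. Of 7 genes of coagulation, fibrinolysis and vessel adhesion, 2 were called lower at adhesive implants and 1 at non-adhesive implants, and of 7 matrix proteases and inhibitors 2 and 1 were lower and 1 was higher at each. In the lists of 30 nucleolar ribosome biogenesis genes, 14 endoplasmic reticulum folding genes, 7 cytosolic chaperones and 13 genes of nucleotide, polyamine and amino acid supply, 0 were called in either direction at either implant. Of the inflammatory cytokines and mediators, 12 were tested, and 0 at adhesive and 1 at non-adhesive implants was called lower. Listed genes without a symbol here could not be counted, so the counts cover part of each pathway.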

How the data were processed

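RNA from 16 abdominal wall samples was sequenced, and the deposited values are raw counts per gene, whole numbers for 32552 Ensembl genes. Per the labels and the study's methods, the authors demultiplexed with bcl2fastq 2.17, trimmed with Cutadapt, aligned with STAR and counted with featureCounts, and versions of the latter tools are not given in the sources used here. The supplementary sheets were used for symbols only. CPM was computed from library totals. EdgeR 4.0.16 in R 4.3.3 (filterByExpr, TMM, robust quasi-likelihood test, Benjamini-Hochberg over all genes tested) compared the implants on each day and the difference between the days, and was tested on simulated data. Calls needed an adjusted p no higher than 0.05 and a change of 1 or more on the log2 scale. Alternatives were DESeq2 1.42.0, the study's tool, its size factors, no filter, no fold limit, a single fit, a replicate block and leaving out each library. The members and lists were chosen with earlier results of these data known. Genes were named by rule: all members with a symbol, up to 10 others with the largest smaller fold, the 3 most and least changed between implants each day, the 3 on each side of the fold threshold and the 3 most abundant. Libraries of a group all differed by more than counting noise. Library totals of 13852126 to 24858976 limit members under 1 CPM on day 14.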

Additional observations from a re-analysis of the deposited data

Results flagged for a closer look

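In 8 of 116 groups of 4 values, 1 library stood far from the other 3, where chance gives about 1 in 20. Non-adhesive replicate 4 on day 14 was low for Runx1 (2.06 CPM against 7.48 to 7.80 CPM), for Chrd (3.66 CPM against 10.3 to 11.1 CPM) and for the members' summed level (1526 CPM against 2197 to 2299 CPM). Non-adhesive replicate 2 on day 3 was low for ENSRNOG00000009785 (7.43 CPM against 16.6 to 17.0 CPM) and high for ENSRNOG00000042497 (25 CPM against 12.1 to 12.9 CPM). Non-adhesive replicate 3 on day 3 was low for ENSRNOG00000019582 (9.57 CPM against 15.5 to 16.1 CPM). On day 14, adhesive replicate 2 was high for ENSRNOG00000018815 (2.08 CPM against 0.893 to 1.01 CPM) and non-adhesive replicate 2 for ENSRNOG00000025764 (8.02 CPM against 1.61 to 2.42 CPM).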

How the results depend on the processing

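The number of genes that met the rule moved with its terms. It was 25 with TMM-scaled library totals and 26 with size factors of DESeq2, 145 at 3 times, 45 at 5 times and 141 where the days could overlap, and leaving out each library in turn gave 69 to 117. Between implants, members called on day 14 were 3 with DESeq2, 3 in a single fit of all 16 libraries and 0 to 10 when each library was left out, the 10 without non-adhesive replicate 4. The 3 of the single fit and the 10 include ENSRNOG00000054495, whose calls support nothing here. Over all genes, DESeq2 called 69 on day 3, 474 on day 14 and 25 for the difference between days. On day 14 the single fit called 216 of all genes, and leaving out each library gave 1 to 1151, lowest without adhesive replicate 1. For the difference between days it gave 0 to 3. Whether replicate numbers pair the samples was not settled, and the main tests treated the samples as unpaired. Correlations between same-numbered libraries were -0.48 to 0.37 on day 3 and -0.56 to 0.65 on day 14. On day 14, replicates 2, 3 and 4 correlated best with their own number. With 4 libraries in a group, these correlations cannot exclude a pairing. With the replicate block 0 genes, in place of 36, were called on day 14 and 0 for the difference between days, with 0 members throughout. For single members named by rule and tested in the main fit, no called value reversed and 7 calls were gained, all on day 14. The 7 do not count the calls of ENSRNOG00000054495, not tested in the main fit of day 14, or of ENSRNOG00000019527, named after its values were seen. For members named by rule, 12 log2 fold changes between implants moved by more than the spread of their group when a library was left out, such as that of Prg4 on day 14 (from -0.21 to 0.19 without non-adhesive replicate 1). The causes were not tested. Depth limits the 4 members not tested on day 14.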
